A study of Mus musculus with 20 samples.

Results

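Wild-type mouse tracheal epithelial cells were compared between day 7 and day 4 of culture at an air-liquid interface, in 3 libraries of day 7 and 3 of day 4, which make 6 of the 20 RNA libraries in the series. The 6 libraries were chosen by their labels for genotype and day, and no expression value was used to choose them. The cells were primary cultures of mouse tracheal epithelium grown on porous membranes, and the labels name air-liquid interface as the treatment of every culture. The comparison asks what changed between these days, and against it stand the same days of the cultures labelled p73 knockout (2 libraries of day 7 and 2 of day 4), which carry a global deletion of p73 according to the labels. Levels of the wild-type libraries of day 0 and day 14 (3 each) are given for context. Age, sex and strain of the mice, and how many animals were behind a culture, are unknown from the labels. With the replicate number as a block, the p-values measure how far the difference between the days varies among the replicate pairs. That spread may be in part technical. Poly(A) RNA was sequenced. The design text counts 3 replicates per genotype, and 2 labelled-knockout replicates per day were analysed here.

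Tracheal basal cells that are lifted to an air-liquid interface stop being a proliferating sheet and become a layer of basal, secretory and multiciliated cells. A cell that becomes multiciliated first switches on a set of regulators, among them geminin coiled-coil factors, Myb, p73, Foxj1 and Rfx factors. It then makes many centrioles, docks them at the surface as basal bodies, and builds an axoneme on each from dynein arms, radial spokes, a central pair and nexin links. Smooth muscle type actin and its partners are proteins of contractile cells that epithelial cells in culture can also make.

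Levels are CPM, reads scaled to the size of the library with TMM factors (trimmed mean of M values). Differences are day 7 minus day 4 on the scale of log2(CPM + 0.5), with the SE of limma, and the scale understates the change of genes with low levels. The test was limma with the replicate number as a block, since same-numbered wild-type libraries deviated together from their group means. A gene was called at a Benjamini-Hochberg adjusted p (FDR) under 0.05 over all tested genes. "Same way in 3 pairs" means that day 7 minus day 4 had one sign within each replicate number.

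Libraries of day 7 held 26170439, 18807521 and 20119864 reads in replicates 1 to 3, and those of day 4 held 29869432, 20292752 and 3266912 reads. In day 4 replicate 3 a count of 3 reads is 0.918 CPM, so genes under about 1 CPM are poorly measured there. The title of day 4 replicate 1 names day 3, as does that of the labelled-knockout day 4 replicate 1, while their other labels state day 4. Day 4 replicate 1 also stood apart: on the first principal component, with 55.2% of the variance, it lay at 59.0, against -33.7 to 4.11 for the other libraries. Its part in the results was not tested, and counts and list medians that move most with it are given with and without replicate 1. Trp73 did not check the knockout label. Scaled over the whole series, it had 30.2 and 21.2 CPM in the libraries labelled knockout at day 7, against 22.2, 27.0 and 34.9 CPM in wild type. At day 4 it had 35.1 and 27.5 CPM in the libraries labelled knockout, against 9.83, 22.03 and 23.3 CPM in wild type. The deleted part of the gene is not given in the labels.

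Between day 4 and day 7 a small group of contractile, adhesion and protease genes fell in every wild-type replicate. Acta2, Cnn1, Tagln, Tpm2 and Csrp1, whose products form or bind actin filaments, fell by 0.75 to 3.27 on the log2 scale, and so did Mcam and Tnc, of cell adhesion and matrix, and the proteases Plau and Klk10. Slc23a2, a transporter of vitamin C, and the metallothionein Mt1 rose. Of 14036 genes tested with limma, 15 were called (0.107%), 2 higher (0.0142%) and 13 lower (0.0926%) at day 7. All 15 moved the same way in 3 pairs, against 22.7% higher and 17.8% lower over all tested genes. For 12 of them the levels of the days did not overlap, against 10.2% higher and 5.21% lower without overlap over all tested genes. Both counts come from the values that made the calls, so they describe the 15 genes and add no support. Without the block 3 genes were called, namely Acta2, Mcam and Plau. Without replicate 1 (both days) 518 of 14084 genes were called (3.68%), 384 higher (2.73%) and 134 lower (0.951%), with all 15 among them, and without replicate 3 there were 0 calls and 1713 genes at an unadjusted p under 0.05.

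**Figure D1:**
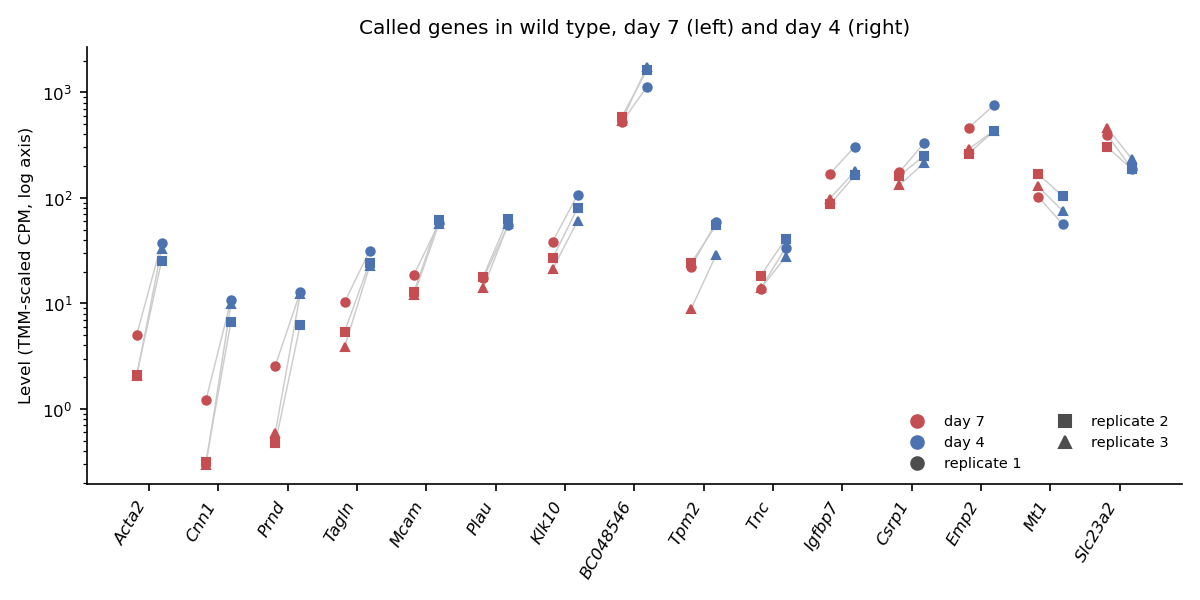
Level in TMM-scaled CPM (log axis) of the 15 called genes in each wild-type library, with day 7 left of day 4 for each gene, the symbol shape giving the replicate and a line joining the days of one replicate. Acta2 lies between 2.04 and 5.01 CPM at day 7 and between 25.3 and 37.2 CPM at day 4, and every line falls from right to left except those of Mt1 and Slc23a2.

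Acta2, smooth muscle actin (ENSMUSG00000035783, chr19:34241090-34255590 in GRCm38), had 5.01, 2.10 and 2.04 CPM in day 7 replicates 1 to 3, against 37.2, 25.3 and 33.0 CPM at day 4. The day 7 libraries were all below the day 4 libraries, by -3.27 ± 0.20 (SE, n = 3 pairs, limma FDR 0.0054). Cnn1, calponin, which binds actin in smooth muscle (chr9:22099216-22109630), had 1.21, 0.315 and 0.298 CPM at day 7 and 10.7, 6.70 and 9.88 CPM at day 4. Its groups did not overlap either (-3.18 ± 0.25, FDR 0.014). Tagln, the actin-binding transgelin (chr9:45929619-45936058), had 10.3, 5.40 and 3.87 CPM at day 7, against 31.4, 24.4 and 22.5 CPM at day 4 (-2.01 ± 0.18, FDR 0.022). For all 3 genes replicate 1 kept the highest day 7 level. Tpm2, a tropomyosin that lies along actin filaments, had 22.3, 24.3 and 8.94 CPM at day 7 and 59.3, 55.2 and 29.0 CPM at day 4 (-1.40 ± 0.12, FDR 0.019). Csrp1, a LIM protein of the actin cytoskeleton, had 175, 162 and 131 CPM at day 7, against 332, 251 and 215 CPM at day 4 (-0.75 ± 0.08, FDR 0.044). In these bulk samples fewer cells of a type and less RNA per cell cannot be told apart. Acta2 and Acta1 code for closely related actins, and how reads were split between these genes was not checked. Exons of Tagln overlap those of Pcsk7 on the opposite strand, which had mean levels of 41.0 CPM at day 7 and 45.4 CPM at day 4, and no source names the strand setting of the counting.

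The following 5 muscle-related genes, which did not pass the test, were picked for their large lower values after these were seen, so they are given as a description and add no support. Myl9, a regulatory light chain of smooth muscle myosin, had 3.98, 1.26 and 0.695 CPM at day 7, against 15.5, 11.7 and 17.3 CPM at day 4 (-2.84 ± 0.39, FDR 0.075). Its groups did not overlap, and it was called without replicate 1 (-3.34, FDR 7.4e-06). Acta1, skeletal actin, differed by -2.58 ± 0.43 (FDR 0.075), with mean levels of 0.794 CPM at day 7 and 6.65 CPM at day 4. Ankrd1, an ankyrin repeat protein best known from heart and skeletal muscle, had 3.86 ± 2.82 CPM (SD, n = 3) at day 7 and 20.8 ± 2.35 CPM at day 4 (-2.55 ± 0.55, FDR 0.12). Flnc, a muscle filamin, differed by -1.56 ± 0.24 (FDR 0.074) and the small heat shock protein Cryab by -1.32 ± 0.19 (FDR 0.074), and for both the groups overlapped.

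Of the genes of adhesion, matrix and proteolysis, Mcam, an adhesion molecule of the immunoglobulin family (chr9:44134469-44142727), had 18.7, 12.8 and 12.01 CPM at day 7, against 57.2, 62.3 and 56.8 CPM at day 4. The day 4 libraries lay close together and all above day 7 (-2.01 ± 0.15, FDR 0.013). Plau, the urokinase that activates plasminogen (chr14:20836660-20843385), had 17.3, 17.99 and 14.1 CPM at day 7, against 55.2, 63.6 and 56.2 CPM at day 4. It was as even across replicates as Mcam (-1.80 ± 0.11, FDR 0.0054). Klk10, a kallikrein-related peptidase, had 38.5, 26.8 and 21.1 CPM at day 7 and 107, 80.0 and 60.5 CPM at day 4. Its pairs differed by -1.46, -1.56 and -1.498 (-1.51 ± 0.09, FDR 0.0054). Tnc, the matrix protein tenascin C, had 13.8, 18.3 and 13.9 CPM at day 7, against 33.6, 40.8 and 27.5 CPM at day 4 (-1.12 ± 0.11, FDR 0.034). Prnd, the prion-like protein doppel, had 2.58, 0.472 and 0.596 CPM at day 7 and 12.7, 6.30 and 12.3 CPM at day 4 (-2.82 ± 0.29, FDR 0.036), and its exons overlap those of a read-through gene on the same strand.

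The remaining called genes were abundant. BC048546, annotated as A2ml1 and related to the protease inhibitor alpha-2-macroglobulin, had 524, 589 and 539 CPM at day 7, against 1125, 1624 and 1740 CPM at day 4 (-1.42 ± 0.12, FDR 0.018). Igfbp7, an insulin-like growth factor binding protein, had 169, 86.7 and 98.5 CPM at day 7 and 306, 163 and 178 CPM at day 4 (-0.87 ± 0.07, FDR 0.014). The groups of Igfbp7 overlapped, since day 7 replicate 1 exceeded day 4 replicate 2, and its exons overlap Polr2b on the opposite strand (mean levels 143 CPM at day 7 and 148 CPM at day 4). Emp2, an epithelial membrane protein, had 462, 263 and 289 CPM at day 7, against 750, 426 and 430 CPM at day 4 (-0.66 ± 0.07, FDR 0.044), again overlapping through replicate 1. Slc23a2 had 393, 302 and 460 CPM at day 7, against 187, 186 and 231 CPM at day 4, and its groups did not overlap (0.92 ± 0.09, FDR 0.030). Mt1, which binds zinc and copper, had 103, 169 and 129 CPM at day 7 and 56.2, 103 and 75.01 CPM at day 4, and the groups just touched (0.78 ± 0.08, FDR 0.030).

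Across the wild-type days 0, 4, 7 and 14 the lower genes did not share one course. Acta2 averaged 26.9, 30.9, 2.96 and 2.24 CPM in that order and Cnn1 5.96, 8.82, 0.592 and 0.291 CPM, so that the large step lay between day 4 and day 7. Klk10 averaged 488, 80.1, 28.0 and 11.8 CPM, Plau 145, 56.6, 16 and 11.3 CPM and BC048546 3962, 1450, 534 and 253 CPM, with a lower mean at each later day. Tagln (45.9, 25.4, 6.34 and 4.08 CPM) and Mcam (84.4, 57.0, 14.1 and 11.05 CPM) were likewise lower at each later day. Slc23a2 had a higher mean at each later day (67.2, 195, 374 and 579 CPM), while Mt1 was highest at day 0 (200, 75.7, 129 and 130 CPM). These means over 3 libraries are scaled over all 20 libraries, and the steps other than day 7 against day 4 were not tested here.

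Lists of markers of cells other than epithelium did not share one direction, and their called members, Acta2, Cnn1 and Tagln, are the contractile genes described above. Of 11 smooth muscle and cartilage markers 6 were tested and 3 fell (Acta2, Cnn1 and Tagln), against 0.0926% called lower over all tested genes. Of the 6, 5 were lower in 3 pairs (83.3%, against 17.8% of all tested genes). The median difference was -1.57, against 0.01 over all tested genes. Their summed level was 13.7 to 26.8 CPM at day 7, against 70.8 to 92.6 CPM at day 4. Myh11, smooth muscle myosin, had low levels and was not called (-1.13, FDR 0.083, mean levels 0.769 CPM at day 7 and 2.34 CPM at day 4). Lmod1 of the same list was not called either (-1.11, FDR 0.079, mean levels 0.944 CPM at day 7 and 2.64 CPM at day 4). Both were lower in 3 pairs without overlap, as were Acta2, Cnn1 and Tagln. Sox9 had mixed signs (-0.06, mean levels 6.7 CPM at day 7 and 7.23 CPM at day 4). The other markers, Des, Actg2, Col2a1, Acan and Comp, reached at most 0.851 CPM in any library and were not tested. Of 15 fibroblast markers 12 were tested and 0 were called by limma in either direction, while 8 were lower in 3 pairs (66.7%, against 17.8% of all tested genes). The median difference was -0.84, and 3 (Col1a2, Col5a2 and Sparc) were called lower without replicate 1, against 0.951% of all genes tested there. The summed fibroblast level was 205 to 319 CPM at day 7, against 359 to 548 CPM at day 4, most of it Fn1, with 167, 114 and 136 CPM at day 7 against 318, 343 and 213 CPM at day 4 (-1.05 ± 0.19, FDR 0.089). Col1a1, Col1a2 and Col3a1 reached at most 12.3 CPM in any library. The 8 leukocyte genes that were not tested, Cd3e, Cd79a, Ptprc, Emr1, Tyrobp, Cd52, Fcer1g and Coro1a, were at most 0.635 CPM in any library. The list's summed level (534 to 1108 CPM at day 7, 688 to 1238 CPM at day 4) was nearly all Lyz2, a lysozyme that mouse airway epithelium also makes. Cd68 had 17.5, 21.8 and 13.9 CPM at day 7, against 25.2, 23.7 and 24.7 CPM at day 4. The tested members Itgam, Csf1r, Laptm5 and Cd74 reached at most 4.75 CPM in any library. Of 14 leukocyte markers 6 were tested with 0 called by limma, while 5 were lower in 3 pairs (83.3%, against 17.8% of all tested genes). In 3 the days did not overlap and day 7 was lower (50%, against 5.21%). The median was -0.57, and Cd74 was called lower without replicate 1. Of 10 endothelial and glial markers 4 were tested and 0 were called. In 3 pairs 2 were higher and 1 lower (50% and 25%, against 22.7% and 17.8% of all tested genes). The median was 0.18, and the sum was 4.83 to 6.52 CPM at day 7, against 3.95 to 9.03 CPM at day 4. The part of other cells in the fall of the contractile genes was not tested.

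Of 25 tested matrix genes 1 fell, Tnc, against 0.0926% called lower over all tested genes. In 3 pairs 18 were lower (72%, against 17.8% of all tested genes), with a median of -0.35. Without replicate 1 the basement membrane genes Hspg2, Nid1, Col4a3 and Col4a4 were called lower as well, against 0.951% of all genes tested there. Of these Hspg2, the core of perlecan, had 4.44, 3.20 and 1.74 CPM at day 7, against 14.8, 7.40 and 7.41 CPM at day 4 (-1.52 ± 0.21, FDR 0.074). The laminin chain Lama5 differed by -0.27 ± 0.08 (FDR 0.13). Of 18 tested secreted proteases and inhibitors 1 fell, Klk10, against 0.0926% called lower over all tested genes, and the median was -0.09.

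For 5 of the genes that fell in wild type, the change differed between wild type and the libraries labelled knockout. The change in wild type minus the change in those libraries was fitted over 10 libraries with a block for each culture series, and of 14755 tested genes 7 were called by limma (0.0474%), 2 higher (0.0136%) and 5 lower (0.0339%). The lower ones were Acta2, Cnn1, Mcam, Tagln and Tnc, which include 3 of 7 tested smooth muscle and cartilage markers and 1 of 25 matrix genes. All 5 had fallen in wild type. The wild-type values behind those calls also enter this difference, so the overlap is in part built in and adds no support. Acta2 had 13.7 and 14.7 CPM in the libraries labelled knockout at day 7, against 7.72 and 16.6 CPM in them at day 4. Its change was -3.28 in wild type and 0.31 in labelled knockout, a difference of -3.59 ± 0.36 (FDR 0.025). Mcam had 26.9 and 31.1 CPM in labelled knockout at day 7, against 21.4 and 23.9 CPM at day 4. The changes were -2.02 in wild type and 0.35 in labelled knockout (difference -2.36 ± 0.21, FDR 0.014). Tnc had 49.8 and 40.6 CPM in labelled knockout at day 7, against 31.8 and 29.1 CPM at day 4, and there the groups did not overlap and day 7 was the higher (wild type -1.13, labelled knockout 0.56, difference -1.68 ± 0.16, FDR 0.015). Tagln had 9.77 and 17.9 CPM in labelled knockout at day 7 and 9.28 and 16.2 CPM at day 4 (difference -2.12 ± 0.26, FDR 0.046). Cnn1 had 0.438 and 0.793 CPM in labelled knockout at day 7, against 0.312 and 0.722 CPM at day 4 (difference -3.33 ± 0.38, FDR 0.032). These levels are near the pseudocount of 0.5 and left no room for a fall, so the difference of Cnn1 restates its change in wild type. The changes in labelled knockout were 0.10 for Tagln and 0.14 for Cnn1, and that of Tnc was the largest of the 5.

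The higher genes had barely moved in wild type. Emp1, a relative of Emp2, had 159, 213 and 263 CPM in wild type at day 7, against 132, 180 and 181 CPM at day 4. In labelled knockout it had 141 and 204 CPM at day 7 and 279 and 399 CPM at day 4 (wild type 0.35, labelled knockout -0.98, difference 1.32 ± 0.13, FDR 0.015). Cnfn, cornifelin of the cornified envelope of squamous epithelium, was at most 0.463 CPM in the wild-type libraries, under the filter of 0.5 CPM. In labelled knockout it had 1.49 and 2.75 CPM at day 7, against 20.1 and 41.9 CPM at day 4 (difference 3.90 ± 0.33, FDR 0.014). Cnfn was tested only through the libraries where it is high, and wild type had no room for a fall, so its difference restates the labelled-knockout values and is no comparison of 2 measured changes. Plau, Tpm2, Csrp1 and Klk10 did not pass this test (FDR 0.34, 0.11, 0.97 and 0.98). Csrp1 differed by -0.76 in wild type and -0.47 in labelled knockout, where both pairs were lower, and Tpm2 by -1.41 in wild type and -0.22 in labelled knockout. Klk10 differed by -1.52 in wild type and -1.65 in labelled knockout, and Plau in labelled knockout by 0.59 with its labelled-knockout pairs at -0.13 and 1.32. With 2 pairs in labelled knockout, all 7 calls were lost when wild-type replicate 3 or either labelled-knockout replicate was left out, and without the block 0 genes were called.

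**Figure D2:**
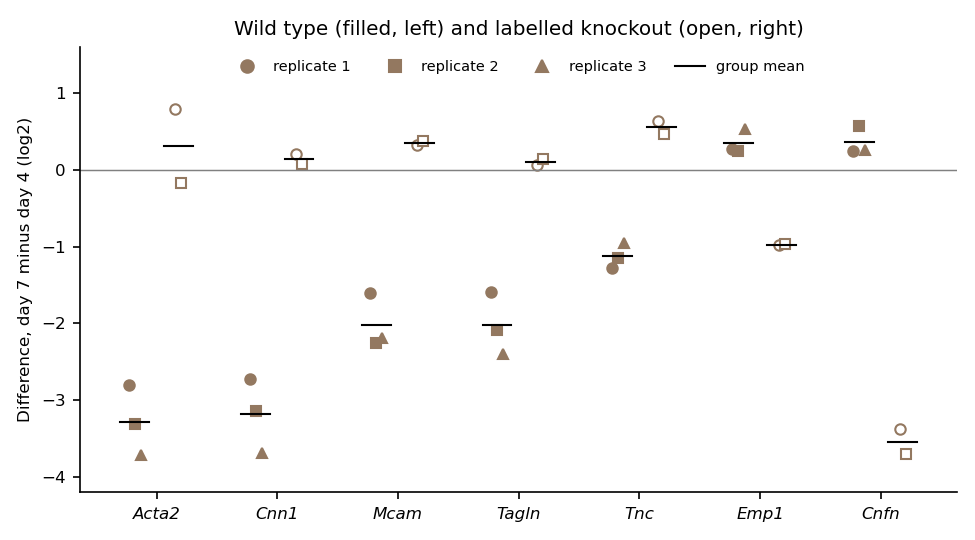
Difference day 7 minus day 4 (log2) of the 7 genes whose change differed between genotypes, in wild type (filled, left, 3 pairs) and in the libraries labelled knockout (open, right, 2 pairs), with a line at each group mean. Acta2, Cnn1, Mcam, Tagln and Tnc lie below 0 in wild type and near or above 0 in labelled knockout, and Cnfn lies at -3.37 and -3.70 in the labelled-knockout pairs.

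Motile cilium genes had higher levels at day 7 in almost every wild-type pair, but by unequal amounts, and 0 of them passed the test. The 7 lists of axonemal genes held 125 genes, of which 118 were tested. Of these 114 were higher in 3 pairs (96.6%, against 22.7% of all tested genes) and in 99 the days did not overlap (83.9%, against 10.2%). The median difference was 1.18, made up of 2.07 in replicate 1, 0.52 in replicate 2 and 0.92 in replicate 3. The difference of replicate 1 was the largest of the 3 in 110 of the 118 genes. The lowest FDR was 0.074. Without replicate 1, 73 of 119 tested axonemal genes were called higher with a median of 0.72, against 2.73% of all genes called higher there. DESeq2 with the block called 56 higher, against 5.56% called over all genes by DESeq2 (3.83% higher, 1.74% lower).

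**Figure D3:**
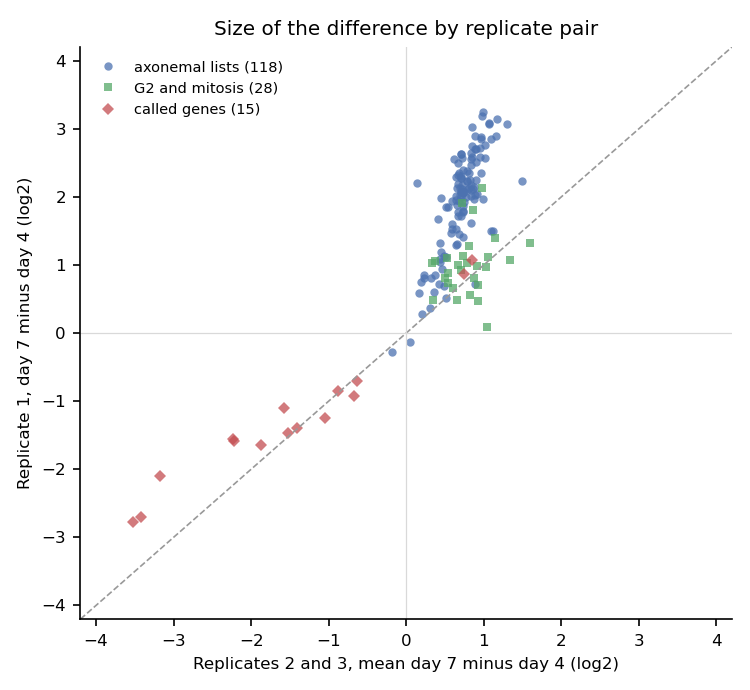
Difference day 7 minus day 4 (log2) in replicate 1 (vertical) against the mean of replicates 2 and 3 (horizontal) for the 118 tested axonemal genes, 28 G2 and mitosis genes and the 15 called genes, with a dashed line where both are equal. Axonemal genes lie far above the line, with replicate 1 differences up to 3.25, while most called genes lie on or above it on the negative side.

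The summed level of the axonemal genes, scaled over all 20 libraries, shows where the inequality lies. Day 4 replicate 1 had 1680 CPM, against 4408 and 4399 CPM in day 4 replicates 2 and 3, while day 7 replicates had 6181, 6241 and 8461 CPM. At day 0 the sums were 614, 524 and 597 CPM and at day 14 they were 7974, 10956 and 10789 CPM. Day 4 replicate 1 lay between the day 0 and the other day 4 libraries. The level of every day 7 library was above that of every day 4 library, and replicate 1 was the lowest at days 4, 7 and 14. Day 4 replicate 1 is titled day 3, as is labelled-knockout day 4 replicate 1. The labelled-knockout pair of replicate 1 had an axonemal median of 0.12, against 0.88 in replicate 2. The part of the titled day was not tested.

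**Figure D4:**
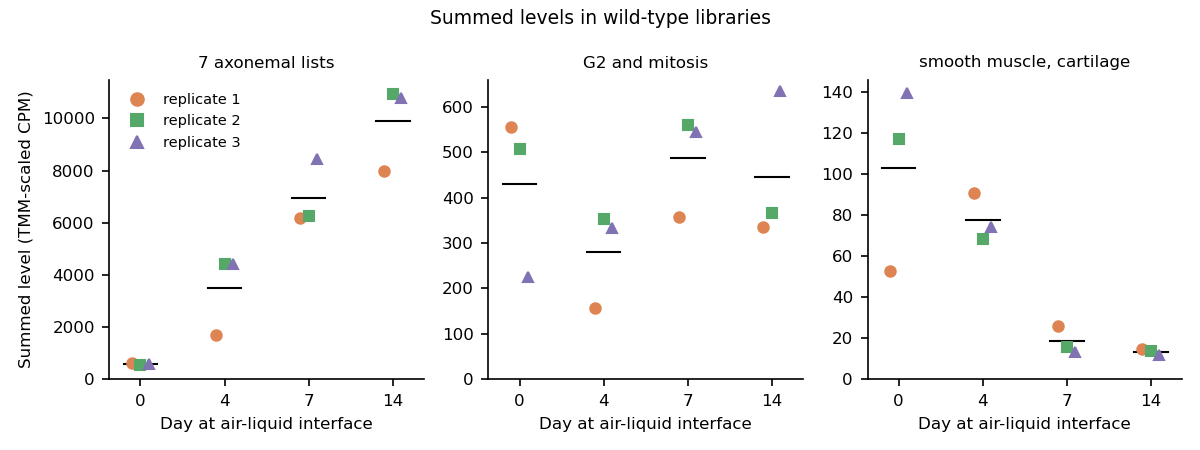
Summed level (TMM-scaled CPM over all 20 libraries) of the 7 axonemal lists, of G2 and mitosis genes and of smooth muscle and cartilage markers in each wild-type library on days 0, 4, 7 and 14, with a bar at the mean of 3. The axonemal sum of day 4 replicate 1 is 1680 CPM, and the smooth muscle and cartilage sum is 13.4 to 26.1 CPM at day 7 and 68.2 to 90.7 CPM at day 4.

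The regulators of multiciliated cells differed less than the axoneme. Of 13 tested, 0 were called, and 8 were higher in 3 pairs (61.5%, against 22.7% of all tested genes). The median was 0.65 (1.14, 0.30 and 0.22 in replicates 1 to 3), or 0.31 without replicate 1. Foxj1, the forkhead factor of motile cilia, had 429, 503 and 481 CPM at day 7, against 139, 343 and 338 CPM at day 4, and its groups did not overlap (0.89 ± 0.26, FDR 0.18). Mcidas, the coiled-coil factor multicilin, had 53.6, 64.1 and 71.1 CPM at day 7, against 20.03, 48.3 and 46.9 CPM at day 4 (0.80 ± 0.20, FDR 0.13). Rfx2, which binds the X-box, had 47.1, 44.4 and 50.1 CPM at day 7 and 21.97, 34.6 and 30.3 CPM at day 4 (0.72 ± 0.15, FDR 0.082). These 3 were called without replicate 1, by 0.53, 0.50 and 0.54, against 2.73% of all genes called higher there. Gmnc, which acts before Mcidas, had 54.3, 43.5 and 44.8 CPM at day 7, against 25.8, 36.5 and 46.3 CPM at day 4, so that replicate 3 did not share the difference (0.42 ± 0.22, FDR 0.40). Myb, which acts early in the programme, had 149, 168 and 203 CPM at day 7 and 38.3, 140 and 158 CPM at day 4 (0.86 ± 0.38, FDR 0.35). It was higher at day 7 in each replicate, by far the most in replicate 1.

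Ccno, a cyclin needed for centriole production, differed by 0.59 ± 0.21 (FDR 0.23), Rfx3 by 0.65 ± 0.26 (FDR 0.30) and Foxn4 by 0.66 ± 0.29 (FDR 0.33). Trp73 differed by 0.67 ± 0.17 (FDR 0.12), with pairs of 1.14, 0.30 and 0.56. Partners that act with Mcidas at centriole genes in other systems, E2f4, E2f5 and Tfdp1, had differences of 0.07 ± 0.08, -0.06 ± 0.12 and 0.14 ± 0.09, and Rfx1 one of 0.06 ± 0.17. Over the wild-type days 0, 4, 7 and 14 the means of Mcidas were 0.507, 37.2, 61.1 and 37.4 CPM and those of Ccno 1.75, 95.4, 135 and 90.4 CPM, both highest at day 7. Foxj1 (18.7, 265, 457 and 485 CPM) and Rfx2 (12.8, 28.0, 45.9 and 51.4 CPM) were highest at day 14. The later steps and their differences were not tested here.

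**Figure D5:**
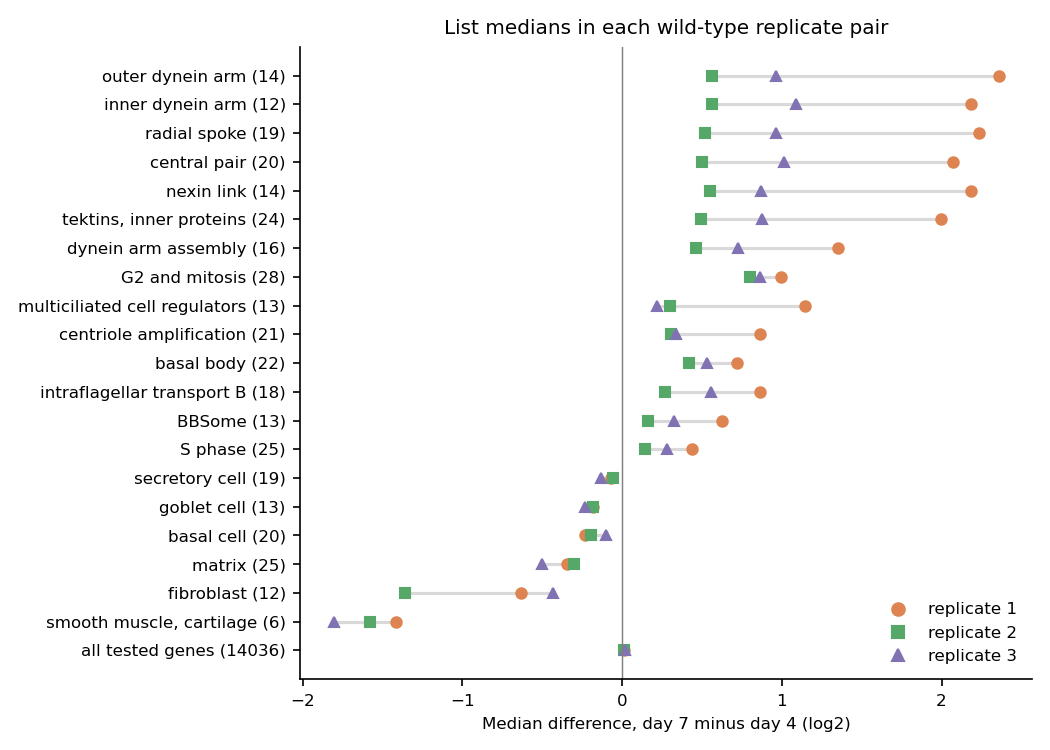
Median difference day 7 minus day 4 (log2) of each gene list within replicate 1, 2 and 3, with the number of tested members beside each name and all tested genes at the bottom. The outer dynein arm list runs from 0.56 in replicate 2 to 2.36 in replicate 1, the G2 and mitosis list lies at 0.80 to 1.00 in every replicate, and the smooth muscle and cartilage list lies between -1.81 and -1.42.

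The medians of the structural lists were 1.28 for 14 outer dynein arm genes, 1.26 for 12 inner dynein arm genes, 1.24 for 19 radial spoke genes, 1.23 for 20 central pair genes, 1.20 for 14 nexin link genes, 1.10 for 24 tektins and microtubule inner proteins, and 0.89 for 16 assembly factors of dynein arms. Without replicate 1 they were 0.80, 0.85, 0.72, 0.74, 0.73, 0.68 and 0.60 in that order. The genes called higher there numbered 9, 8, 12, 10, 9, 15 and 10, against 2.73% of all genes. Of the 4 genes that were not higher in 3 pairs, Tekt5 was lower in all of them (mean levels 1.03 CPM at day 7 and 1.29 CPM at day 4), and Pih1d1, Rsph3b and Efhc2 had mixed signs. Dnahc5, a heavy chain of the outer arm, had 377, 232 and 425 CPM at day 7, against 57.7, 164 and 171 CPM at day 4 (1.502 ± 0.45, FDR 0.19). Dnaic2, an intermediate chain of that arm, had 117, 148 and 176 CPM at day 7, against 26.8, 90.7 and 86.7 CPM at day 4 (1.28 ± 0.30, FDR 0.14), and was called without replicate 1 (0.86, FDR 0.00056). Hydin, a giant protein of the central pair, had 67.0, 43.5 and 79.4 CPM at day 7 and 6.59, 26.4 and 32.4 CPM at day 4 (1.75 ± 0.54, FDR 0.20). In each of these 3 genes the days did not overlap and replicate 1 differed most.

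Rsph1 of the radial spoke differed by 1.18 ± 0.33 (FDR 0.17), Ccdc40, a ruler of the axonemal repeat, by 1.29 ± 0.35 (FDR 0.17), Tekt1 by 1.14 ± 0.31 (FDR 0.17) and Dnali1, a light chain of the inner arm, by 1.26 ± 0.35 (FDR 0.18). Among the genes with the largest differences was the cadherin-like Cdhr4, with 18.7, 12.4 and 28.2 CPM at day 7, against 0.167, 2.65 and 2.47 CPM at day 4 (3.38 ± 0.57, FDR 0.093). It had 61.0 CPM on average at day 14. Tubulin genes split: Tuba1a had 149, 247 and 264 CPM at day 7, against 34.6, 152 and 118 CPM at day 4 (1.31 ± 0.29, FDR 0.13), and Tubb4b, a main beta tubulin of cilia, had 440, 809 and 738 CPM at day 7 and 288, 560 and 516 CPM at day 4 (0.55 ± 0.07, FDR 0.074). Both were among the 3 genes of their list called higher without replicate 1, against 2.73% of all genes tested there. Tubb5, a general beta tubulin, had 264, 305 and 284 CPM at day 7, against 301.4, 368 and 328 CPM at day 4 (-0.22 ± 0.07, FDR 0.16). The 25 tested tubulins and tubulin enzymes had a median of 0.03 with 0 called. Of 12 adenylate kinases and related genes 9 were higher in 3 pairs (75%, against 22.7% of all tested genes, median 0.97), among them Ak7 of the axoneme (1.49 ± 0.44, FDR 0.19).

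Genes of centrioles, basal bodies and transport into the cilium had smaller differences, with 0 called by limma in each list. The medians were 0.55 for 21 centriole amplification genes (19 higher in 3 pairs), 0.58 for 22 basal body genes (19), 0.58 for 18 genes of intraflagellar transport complex B (17), 0.52 for 16 of complex A and its motor (13), 0.51 for 23 of the transition zone (21) and 0.35 for 13 of the BBSome (10). Of all tested genes 22.7% were higher in 3 pairs. Without replicate 1 the medians were 0.36, 0.47, 0.42, 0.39, 0.38 and 0.21 in that order. There 4, 9, 3, 3, 2 and 0 of the genes were called higher, against 2.73% of all genes. Poc5, a centriole protein, averaged 73.5 ± 16.5 CPM at day 7 and 46.6 ± 12.1 CPM at day 4 (SD, n = 3 each, 0.66 ± 0.09, FDR 0.074), with pairs of 0.74, 0.55 and 0.69. Ccdc67, known as Deup1 and a builder of the deuterosome, had 119, 173 and 189 CPM at day 7, against 49.1, 136 and 150 CPM at day 4 (0.65 ± 0.21, FDR 0.21). Pcm1 of centriolar satellites differed by 0.29 ± 0.10 (FDR 0.20) and Ift172, of intraflagellar transport, by 0.60 ± 0.12 (FDR 0.085).

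In the libraries labelled knockout the same axonemal genes had a median difference of 0.51, with 0.12 in replicate 1 and 0.88 in replicate 2, against 1.17 in wild type in the same fit of 10 libraries. In the fit of wild type alone the pair medians were 2.07, 0.52 and 0.92. Without replicate 1 the wild-type median was 0.72, between those of the labelled-knockout pairs. None of the 119 axonemal genes tested there differed between genotypes by limma (0 called). Foxj1 differed by 0.88 in wild type and 0.27 in labelled knockout (difference 0.61 ± 0.35, FDR 0.97) and Hydin by 1.74 and 1.02 in the same order (difference 0.72 ± 0.87). The SE of Hydin is larger than its difference.

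Sequences before the starts of axonemal genes are shown because Rfx factors bind the X-box, which lies before many ciliary genes. The 250 bases before the RefSeq start (GRCm38.p6) were searched on both strands for the X-box letters GTTNCCNNNGNAAC. They occurred in 6 of the 95 axonemal genes with a window (6.32%), against 212 of 27025 genes (0.784%). A match is a run of letters and was not tested for binding. The stretches below run along the gene's strand with the matched letters, on either strand, in capitals, for Dnaaf2 (chr12:69198430-69198476, minus strand), Ccdc19, now Cfap45 (chr1:172521081-172521129, plus), Hydin (chr8:110266926-110266976, plus), Ccdc151 (chr9:22002635-22002698, minus), Spag16 (chr1:69826837-69826910, plus) and 1110004E09Rik, now Cfap298 (chr16:90934994-90935067, minus).
Dnaaf2: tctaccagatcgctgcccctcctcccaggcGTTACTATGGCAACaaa
Ccdc19: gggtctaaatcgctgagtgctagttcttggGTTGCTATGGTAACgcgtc
Hydin: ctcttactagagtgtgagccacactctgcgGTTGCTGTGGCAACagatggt
Ccdc151: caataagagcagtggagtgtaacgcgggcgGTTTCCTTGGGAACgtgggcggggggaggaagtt
Spag16: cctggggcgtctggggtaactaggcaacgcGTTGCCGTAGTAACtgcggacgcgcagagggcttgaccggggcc
1110004E09Rik: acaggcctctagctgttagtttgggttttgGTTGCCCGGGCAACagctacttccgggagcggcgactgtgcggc

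The matches of Dnaaf2, Ccdc19, Hydin and Ccdc151 end within 34 bases of the start. All 6 genes were higher at day 7 in 3 pairs, as were 96.6% of all tested axonemal genes. Dnaaf2, an assembly factor of dynein arms, had 35.6, 42.6 and 47.6 CPM at day 7, against 16.1, 31.4 and 31.5 CPM at day 4 (0.72 ± 0.15, FDR 0.083). Ccdc151, which docks the outer arm, had 60.5, 70.9 and 91.9 CPM at day 7, against 14.8, 45.7 and 48.5 CPM at day 4 (1.18 ± 0.29, FDR 0.15). Ccdc19 differed by 1.04 ± 0.32 (FDR 0.20), Spag16 of the central pair by 1.29 ± 0.31 (FDR 0.11) and 1110004E09Rik by 0.64 ± 0.13 (FDR 0.090). Serum response factor binds the CArG box before smooth muscle genes, searched here only as the letters CCWWWWWWGG, with W for A or T. In the 13 called genes with a window (Tagln and Plau had none) the X-box letters, CCWWWWWWGG and TTTGAA occurred 0 times. Of all genes 0.784%, 1.62% and 18.3% had them. A CArG box with any other letter in place of a W was not searched for. The result says only that these exact letters are not in these windows.

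Genes of G2 and mitosis also had higher levels at day 7 in wild type, by a similar amount in each pair. Of 28 tested, 27 were higher in 3 pairs (96.4%, against 22.7% of all tested genes), and the median was 0.82, with 1.00, 0.80 and 0.86 in replicates 1 to 3. In 6 the days did not overlap (21.4%, against 10.2% higher over all tested genes), 0 were called by limma (lowest FDR 0.074), and 9 were called higher without replicate 1, against 2.73% of all genes tested there. Mki67, a marker of cycling cells, had 11.3, 17.05 and 17.4 CPM at day 7, against 4.21, 7.75 and 3.70 CPM at day 4 (1.503 ± 0.22, FDR 0.074). Its groups did not overlap, and it was called without replicate 1 (1.59, FDR 0.0021). The mitotic cyclins Ccna2, Ccnb1 and Ccnb2 differed by 1.23 ± 0.20, 1.08 ± 0.19 and 1.01 ± 0.18 (FDR 0.075 each), their groups overlapping since day 7 replicate 1 was low. Top2a, the topoisomerase of dividing cells, had 48.6, 94.6 and 86.0 CPM at day 7 and 24.0, 51.7 and 62.4 CPM at day 4 (0.78 ± 0.12, FDR 0.075). The summed level, scaled over all 20 libraries, was 357, 561 and 546 CPM at day 7, against 156, 354 and 334 CPM at day 4, so replicate 1 was the lowest on both days. At day 0 the sums were 556, 508 and 226 CPM and at day 14 they were 336, 367 and 636 CPM, a spread within those days as large as the difference between day 7 and day 4.

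Several of these genes are also used in multiciliated cells, which make centrioles with parts of the mitotic machinery. Nek2, a centrosome kinase with the highest level on the list, had 106, 103 and 149 CPM at day 7, against 27.9, 81.6 and 68.8 CPM at day 4 (1.11 ± 0.32, FDR 0.18), with pairs of 1.91, 0.33 and 1.11. Foxm1, a factor of mitotic genes, had 5.50, 8.44 and 7.60 CPM at day 7 and 5.15, 4.75 and 2.78 CPM at day 4 (0.72 ± 0.25, FDR 0.19). Of 25 S phase genes 16 were higher in 3 pairs (64%, against 22.7% of all tested genes) with a median of 0.25, and 0 were called with or without replicate 1. Mcm6, part of the replicative helicase, differed by 0.17 ± 0.11 (FDR 0.48), and Rrm1, of nucleotide synthesis, by -0.05 ± 0.09 (FDR 0.84). In labelled knockout the G2 and mitosis genes had a median difference of 0.13, with -0.43 and 0.71 in the pairs, against 0.81 in wild type in the same fit, and 0 differed between genotypes. Mki67 differed by 1.49 in wild type and by -0.34 in labelled knockout (difference 1.83 ± 0.39, FDR 0.38).

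The stretch before the Mki67 start (chr7:135716460-135716525, minus strand, RefSeq GRCm38.p6) is shown because genes of G2 and mitosis often carry the letters TTTGAA, known as the cell cycle genes homology region. The letters, in capitals, occurred there in a pair of copies.
Mki67: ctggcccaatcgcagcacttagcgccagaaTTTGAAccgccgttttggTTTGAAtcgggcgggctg
On either strand they occurred in 7 of the 23 genes of the list with a window (30.4%), against 18.3% of all genes and 13.7% of the axonemal genes with a window. So short a run of letters is common in any window.

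Markers of basal, squamous, secretory and goblet cells had small median differences in wild type, and 0 were called by limma with all replicates. Of 20 basal cell markers 0 were called, 12 were lower in 3 pairs (60%, against 17.8% of all tested genes) and the median was -0.17. Krt5, the basal keratin, had 411, 607 and 440 CPM at day 7, against 500, 689 and 499 CPM at day 4, and the groups overlapped (-0.22 ± 0.07, FDR 0.17). Krt15 had 2531, 4419 and 2667 CPM at day 7 and 2283, 3613 and 3417 CPM at day 4 (0.03 ± 0.13, FDR 0.95). Krt17, a keratin of injured and activated epithelium, had 63.6, 92.0 and 51.5 CPM at day 7, against 125, 186 and 72.9 CPM at day 4 (-0.82 ± 0.12, FDR 0.074). With the caveolar protein Cav1 it was called lower without replicate 1, 2 of 20 basal cell markers, against 0.951% of all genes tested there. Squamous genes had a median of -0.08 in 14 tested with 0 called. In the fit of both genotypes, with its wider filter, 19 were tested, with medians of 0.02 in wild type and -0.81 in labelled knockout. Cnfn alone was called there. It passed the filter only through the libraries labelled knockout, where it is high, as may others of the added genes. The 2 medians are therefore no even comparison of the genotypes.

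Of 19 secretory cell markers 0 were called, and the median was -0.07. Cyp2f2, a cytochrome P450 of club cells, had 24249, 21556 and 24848 CPM at day 7, against 27361, 22449 and 30861 CPM at day 4, and its groups overlapped (-0.18 ± 0.11, FDR 0.44). The secretoglobins had differences of opposite sign. Scgb3a1 had 1233, 2292 and 1753 CPM at day 7, against 2651, 3350 and 3023 CPM at day 4, with no overlap (-0.81 ± 0.12, FDR 0.074). Scgb1a1, the club cell secretory protein, averaged 224 ± 106 CPM at day 7 and 153 ± 101.5 CPM at day 4 (0.65 ± 0.11, FDR 0.075), with pairs of 0.36, 0.93 and 0.65. Without replicate 1 Scgb3a1 was called lower and Scgb1a1 higher, against 0.951% lower and 2.73% higher of all genes tested there. Of 13 tested goblet cell markers 0 were called (median -0.06). In 3 pairs 6 were lower and 3 higher (46.2% and 23.1%, against 17.8% and 22.7% of all tested genes). Without overlap 3 were lower and 2 higher (23.1% and 15.4%, against 5.21% and 10.2%). The gel-forming mucins Muc5b, with 413, 518 and 456 CPM at day 7 against 720, 637 and 738 CPM at day 4 (-0.60 ± 0.11, FDR 0.075), and Muc5ac, with 9.44, 7.71 and 8.79 CPM at day 7 against 13.5, 14.6 and 15.4 CPM at day 4 (-0.72 ± 0.15, FDR 0.083), did not overlap between days. Both were called lower without replicate 1, as was Muc20, while Clca3 was called higher. These are 3 lower and 1 higher of 14 markers tested there, against 0.951% and 2.73% of all genes.

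Markers of rare cells gave 0 calls by limma. Of 10 tuft cell genes the median was 0.49 (0.98, 0.00 and 0.45 in replicates 1 to 3, and 0.27 without replicate 1), with Dclk1 at -0.30 ± 0.11 (FDR 0.22) and Gnat3 at 0.75 ± 0.31 (FDR 0.26). Of 10 ionocyte genes the median was 0.03, with Atp6v1c2, a proton pump subunit, at 0.13 ± 0.09 (FDR 0.56). Of 8 neuroendocrine genes the median was 0.30 (0.47 without replicate 1), with Cplx2 at 0.14 ± 0.16 (FDR 0.74) and Nov at 1.14 ± 0.27 (FDR 0.11). Nov was the single one called without replicate 1, against 2.73% of all genes called higher there.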

How the data were processed

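Per the labels, poly(A) RNA was extracted with RNeasy and made into libraries with TruSeq RNA v2. The submitters' processing notes name STAR 2.3.0e, DESeq2 1.4.5 and mm10. Of the counting tool, gene annotation and strand, nothing is stated in those sources. The authors deposited values for 38355 genes that are read counts per the file headers but carry decimals, and they are treated as a signal. In each library 100% of the values above 0 were whole multiples of 1 step to within 0.1 of it, as for counts divided by a size factor, and reads were recovered by dividing by that step. The deposited comparisons between genotypes were not used.

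Reads were scaled to CPM by TMM (edgeR 4.0.16, R 4.3.3) over the libraries compared. A gene was tested if 3 of 6 libraries (2 of 10 between genotypes) reached 0.5 CPM, by limma 3.58.1 (trend and robust) on log2(CPM + 0.5), with the replicate number as a block and Benjamini-Hochberg adjustment across the tested table. Because the values were not raw counts, limma was the main test, and edgeR's quasi-likelihood test and DESeq2 1.42.0 were run on the recovered reads as alternatives. The scripts were tested on simulated data. Same-numbered wild-type libraries deviated together (correlations 0.671, 0.301 and 0.538 over 7018 genes, against -0.625 to 0.424 between other numbers), so the numbers were taken to pair. With 2 labelled-knockout replicates that correlation is equal by construction (0.803). A wild-type fit without 1 replicate pair has 1 residual degree of freedom, and its calls lean on the variance shared across genes.

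The members, the 44 gene lists and the tests were chosen with earlier results of these data known. Named genes were up to 12 called genes of each direction with at least 5 CPM in the higher group, the same way in 3 pairs, without overlap and without clone-like or sex-linked names, all tested regulators of multiciliated cells, up to 4 called and up to 2 abundant uncalled members of a list, Trp73, and up to 5 genes of each direction differing between genotypes. From these, genes of the lists described are given. The called genes Mt1, Igfbp7, Emp2 and BC048546, and uncalled genes such as Myl9, Mki67, Hydin and Scgb3a1, and those in the closing observations other than Aldh1a1, were added after their values were seen. Coordinates are GRCm38 from GENCODE vM21, found for 13911 tested genes, and promoter sequences are RefSeq. Symbols are as deposited, so Dnahc stands for Dnah.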

Additional observations from a re-analysis of the deposited data

Results flagged for a closer look

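The change between day 4 and day 7 differed between wild type and the libraries labelled knockout in 7 genes by the interaction test of limma. The wild-type change minus the labelled-knockout change was -3.59 for Acta2, -3.33 for Cnn1, -2.36 for Mcam, -2.12 for Tagln and -1.68 for Tnc. It was 1.32 for Emp1 and 3.90 for Cnfn. Cnfn was under the filter of 0.5 CPM in all 6 wild-type libraries (at most 0.463 CPM) and was tested only through the libraries labelled knockout, and Cnn1 was at most 0.793 CPM in those, so neither had room for a fall on its low side. All 3 wild-type pairs of Acta2, Cnn1, Mcam, Tagln and Tnc were lower at day 7, and 1 of 2 labelled-knockout pairs of Acta2 and both of the other 4 genes were higher. Both labelled-knockout pairs of Emp1 and Cnfn were lower at day 7. All 7 calls were lost without replicate 3, without either labelled-knockout replicate and without the block, and were kept without replicate 1.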

How the results depend on the processing

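The 15 called genes kept their direction under all 24 alternatives to the wild-type comparison, and over genes and settings 220 calls were kept and 140 lost. Calls (higher and lower) were 781 (537 and 244) by DESeq2, 138 (68 and 70) without a filter on low values, 191 (117 and 74) with libraries thinned to the shallowest, 8 (3 and 5) with 12 wild-type libraries and 22 (13 and 9) with 20 libraries in 8 groups. Calls ranged from 0 to 518 (0 to 384 higher, 0 to 134 lower) when a replicate pair or a single library was left out, with 408 (321 and 87) without replicate 2. Without the replicate block 3 genes were called (0 and 3). edgeR without replicate 1, added after seeing the data, called 499 (360 and 139). All 15 were also called without replicate 1, without replicate 2, by DESeq2 and with thinned libraries, and 12 by edgeR.

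For the comparison between genotypes, with 7 calls (2 and 5), there were 44 (16 and 28) by DESeq2, 17 (10 and 7) with a pseudocount of 2, 3 (1 and 2) with voom and 5 (2 and 3) each by edgeR, with a pseudocount of 0.1, with a mean of at least 2 CPM and with thinned libraries. There were 0 with 20 libraries and 0 without the replicate block. Leaving out a replicate pair or library gave 0 to 12 (0 to 6 higher, 0 to 6 lower), and leaving out labelled-knockout replicate 1 or 2, added after seeing the data, 1 (0 and 1) and 0. The causes were not tested.

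Among the other named genes, none called, some near 0 turned sign. Krt15 was -0.0013 thinned, -0.10 to 0.20 without a replicate pair (-0.033 without replicate 1, the same by edgeR), -0.25 without day 7 replicate 2 and -0.18 without day 4 replicate 1. Rfx1 was -0.075 thinned, -0.16 to 0.19 without a pair, and -0.0095, -0.036 and -0.089 without day 7 replicate 1, day 7 replicate 2 or day 4 replicate 2. Pih1d1 was 0.0050 with voom, 0.012 with library size scaling, -0.11 to 0.049 without a pair (0.068 by edgeR without replicate 1), 0.059 without day 7 replicate 1 and 0.0069 without day 4 replicate 3. Without a pair, E2f5 reached 5.71e-05 and Rrm1 ranged from -0.15 to 0.025. Dclk1 was 0.029 without day 7 replicate 2, Lama5 0.059 and Efhc2 -0.093 without day 4 replicate 1, and thinned Atp6v1c2 was -0.024 and Cplx2 -0.0017.

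In day 4 replicate 3, the shallowest library, levels under 1 CPM rest on few reads. Leaving out single libraries used no block, so those values change 2 choices at once.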

Other observations

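Genes on no list or named for no comparison gave further values. Sec14l3, a lipid-binding protein abundant in ciliated epithelium, had 1475, 887 and 1910 CPM at day 7, against 151, 499 and 657 CPM at day 4, with no overlap (1.88 ± 0.51, limma FDR 0.17). Itgal, an integrin chain best known from leukocytes, had 5.54, 5.87 and 9.28 CPM at day 7, against 0.368, 2.35 and 1.23 CPM at day 4 (2.15 ± 0.34, FDR 0.075), while Ptprc was at most 0.157 CPM in any of the libraries. Timp4, an inhibitor of metalloproteinases, had 4.02, 7.76 and 14.1 CPM at day 7 and 0.167, 2.70 and 2.78 CPM at day 4 (2.09 ± 0.29, FDR 0.074). Chl1, a neural adhesion molecule, had 30.7, 25.4 and 28.4 CPM at day 7, against 17.7, 9.71 and 12.7 CPM at day 4 (1.08 ± 0.14, FDR 0.074). All 4 were called higher without replicate 1.

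Ager, a receptor best known from alveolar type 1 cells, had 36.0, 3.36 and 4.62 CPM at day 7, against 53.4, 11.8 and 15.4 CPM at day 4 (-1.29 ± 0.24, FDR 0.079), so that replicate 1 was the highest on both days. Edn1, the peptide endothelin, had 11, 6.61 and 5.86 CPM at day 7, against 17.6, 17.4 and 19.1 CPM at day 4 (-1.20 ± 0.20, FDR 0.075). Cyr61, a matricellular protein, had 40.1, 28.4 and 28.9 CPM at day 7 and 62.3, 50.2 and 69.5 CPM at day 4 (-0.90 ± 0.13, FDR 0.074). All 3 were called lower without replicate 1.

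The other 13 lists, of planar polarity, Notch, Wnt, retinoic acid, inflammation, interferon, immediate early, p53, hypoxia, xenobiotic, cholesterol, ion transport and junction genes, gave 0 calls by limma in 295 tested entries, with medians from -0.34 to 0.26. Without replicate 1, 7 of 296 entries were called higher and 10 lower, against 2.73% higher and 0.951% lower of all genes tested there. The retinoic acid enzyme Aldh1a1 had 5433, 6113 and 8607 CPM at day 7, against 3093, 5061 and 5175 CPM at day 4, with no overlap (0.61 ± 0.12, FDR 0.083).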
